A study of Mus musculus with 17 samples.

Results

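The genes described here carry the names of cytosolic ribosomal proteins, the proteins that together with ribosomal RNA build the ribosomes of the cytosol. A gene was taken when its only symbol in the array annotation began with Rpl or Rps followed by a digit, with the Rps6k kinases left out, or was Rplp0, Rplp1, Rplp2 or Rpsa. The rule gave 51 of 18194 measured genes. Of these, 43 encode proteins that ordinary mouse ribosomes contain and are called core genes below. The other 8 are the paralogs Rpl22l1, Rpl39l, Rpl3l, Rpl7l1, Rps27l and Rps4l, the pseudogene Rps15a-ps6, and Rps19bp1. Rps4l, counted here with the paralogs, is also annotated in RefSeq as a transcribed pseudogene. Rps19bp1 is not a ribosomal protein but a nucleolar protein named for its binding to Rps19. All 51 genes were measured in 17 primary neuroblastomas of TH-MYCN mice, 1 array per tumor. In these mice human MYCN is expressed in the neural crest from the rat tyrosine hydroxylase promoter, and the tumors came from hemizygous animals. The tumors form a single group with no control tissue and no treatment, the labels gave no age per animal, and the tumors are named by their submitters' numbers (mad548 to mad565). Whole tumors were used, so fewer cells of a type and less RNA per cell cannot be told apart.

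The list of core genes was far from complete on this array. It held 77 genes, of which 34 had no probe set of their own symbol, and 27 of those 34 occurred only in probe sets that list several symbols. Among the genes not measured for this reason were Rpl5, which with Rpl11 binds the p53 regulator Mdm2, the stalk protein Rplp1 and the ubiquitin fusion Rps27a. The 51 measured genes had 107 probe sets, and each gene was given the value of its probe set of highest mean, on the log2 scale of the RMA values. For the sympathoadrenal identity of the tissue, 10 of 11 measured markers were in the top quartile of the array in all 17 tumors. Markers of skeletal muscle were high in 3 tumors, where the mean log2 value of 10 such genes was 12.07 (mad553), 10.57 (mad550) and 9.79 (mad549). In the other 14 tumors it was 5.69 to 6.71.

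A ribosome consists of a large subunit, which joins amino acids, and a small subunit, which reads the mRNA, and each core protein occurs in 1 of them. Genes of ribosomal proteins are transcribed in concert, and their mRNAs typically begin with a C followed by a run of pyrimidines, the terminal oligopyrimidine (TOP) motif, through which growth signals set their translation. MYC family proteins, to which MYCN belongs, are known to raise transcription of ribosomal protein and ribosome biogenesis genes, often from the E-box CACGTG.

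The annotated start sites are shown first because the TOP motif is the feature that these genes are known to share and that the name rule did not use. RefSeq promoter windows on GRCm38.p6, from 250 bases before to 50 bases after the annotated start, were found for 44 of the 51 genes and for 38 of the 43 core genes. A start was called TOP-like when a C followed by at least 4 pyrimidines began within 5 bases of it. The lines below give the 30 bases around the start of 6 core genes that met this rule, 3 core genes that did not and 1 paralog that did, with the pyrimidine run of the TOP-like start in capitals.
Rpl35: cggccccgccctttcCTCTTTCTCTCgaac
Rpl38: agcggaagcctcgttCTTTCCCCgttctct
Rplp2: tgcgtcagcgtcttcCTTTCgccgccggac
Rps6: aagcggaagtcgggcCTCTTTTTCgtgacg
Rps18: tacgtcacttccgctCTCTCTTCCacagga
Rps27: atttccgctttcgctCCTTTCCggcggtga
Rpsa: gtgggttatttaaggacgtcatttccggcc
Rplp0: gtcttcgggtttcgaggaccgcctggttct
Rpl41: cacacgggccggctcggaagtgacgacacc
Rpl22l1: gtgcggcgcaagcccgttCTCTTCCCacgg
The windows lie at chr2:39005117-39005146 (Rpl35, minus strand), chr11:114668565-114668594 (Rpl38, plus), chr7:141447636-141447665 (Rplp2, plus), chr4:86857353-86857382 (Rps6, minus) and chr17:33955651-33955680 (Rps18, minus). Those of the remaining genes lie at chr3:90213634-90213663 (Rps27, minus), chr9:120127751-120127780 (Rpsa, plus), chr5:115559452-115559481 (Rplp0, plus), chr10:128549154-128549183 (Rpl41, minus) and chr3:28805493-28805522 (Rpl22l1, plus). In Rpl35, Rpl38, Rplp2, Rps6, Rps18 and Rps27 the run was counted from a C at the annotated start, with 11, 8, 5, 9, 9 and 7 pyrimidines. The base before the start is also a pyrimidine in each of these 6 genes, so the whole tract begins before the start and is longer.

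TOP-like starts were more frequent among the core genes than among all promoters. They were present in 19 of 44 core windows (43.2%, in 18 of 38 genes), against 6027 of 32851 windows of all genes (18.3%). A run of 8 or more pyrimidines was present in 9 core windows (20.5%), against 3.08% of all windows. Runs were counted forward from the C of the TOP-like start. The E-box CACGTG, which reads the same on both strands, was present in 5 core windows (11.4%), those of Rpl13a, Rpl14, both windows of Rpl19, and 1 of Rps19, against 7.15% of all windows. These shares are descriptions of annotated starts, which were not measured in the tumors. Among core genes with a mean log2 value of 12 or more, the SD over tumors had a median of 0.089 in the 12 genes with a TOP-like start (0.056 to 0.130) and of 0.089 in the 17 without (0.072 to 0.130), so that the ranges overlapped.

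**Figure D1:**
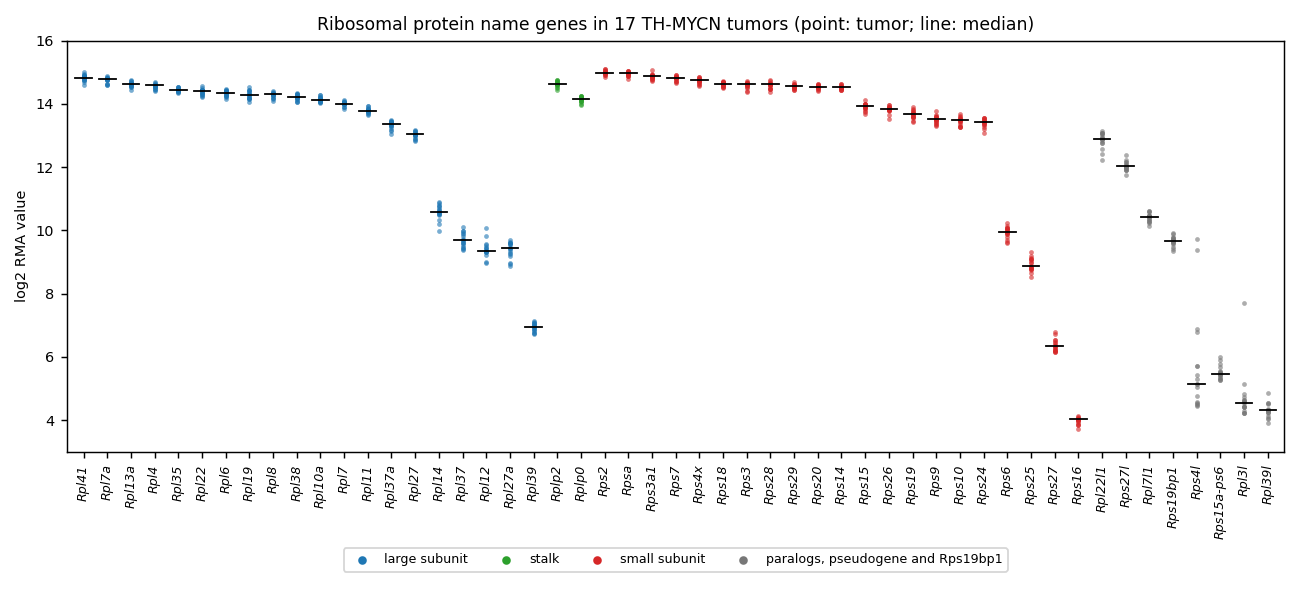
Log2 RMA value (vertical axis) of each of the 51 genes (horizontal axis, by role and then by mean) in 17 tumors, with a point per tumor and a line at the median. 34 core genes lie between means of 13.02 and 14.99, 9 core genes lie at or below 10.57, and Rps4l and Rpl3l are the genes whose tumors spread furthest apart.

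Most core genes gave some of the highest signals of the array. Of the 43, 37 were in the top quartile of the array in all 17 tumors, against 28.2% of all genes. They fell into 34 genes with a mean log2 value of 13.02 to 14.99 and 9 with a mean of 3.98 to 10.57, with none between, and a mean of 12 was taken as the limit after the values had been seen. Levels are those of probe sets and do not rank one gene's mRNA against another's.

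In the large subunit, 15 of 20 genes lay above the limit. Rpl11, which binds Mdm2 when ribosome assembly is disturbed, had a lowest value of 13.66 in mad550, a median of 13.78 and a highest value of 13.94 in mad559. Rpl35, which lies near the exit of the tunnel for the growing chain, had 14.36 at lowest, 14.45 at the median and 14.55 at highest. For Rpl41, the smallest protein of the ribosome, the values were 14.60, 14.83 and 15.02. The tumors thus differed by less than 0.5 log2 units in each of these genes. The wider range among large subunit genes belonged to those with lower signals. Rpl12, which forms the base of the stalk, reached from 8.96 in mad563 over a median of 9.35 to 10.07 in mad561. Rpl14 reached from 9.98 in mad553 over a median of 10.59 to 10.91 in mad548. Rpl39, a short protein in the wall of the exit tunnel, stayed between 6.73 and 7.14 with a median of 6.94.

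The stalk, which recruits the elongation factors to the large subunit, was represented by 2 genes. Rplp0, the scaffold of the stalk, had a lowest value of 13.98 in mad550, a median of 14.16 and a highest value of 14.25 in mad548. Rplp2, 1 of the acidic proteins bound to Rplp0, had 14.44 at lowest in mad552, 14.63 at the median and 14.77 at highest in mad565. The mean of the pair had its 3 lowest values in mad552 (14.25), mad550 (14.26) and mad553 (14.29).

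In the small subunit, 17 of 21 genes lay above the limit. Rpsa, also known as the precursor of the laminin receptor, had 14.78 at lowest in mad550, 14.97 at the median and 15.06 at highest in mad561. Rps20 had 14.42, 14.55 and 14.63, and Rps14, whose loss on 1 allele causes the anemia of the human 5q- syndrome, had 14.43, 14.52 and 14.65. Rps19, mutated in human Diamond-Blackfan anemia, ranged more widely, from 13.44 in mad550 over 13.69 to 13.91 in mad548. Rps24 ranged from 13.07 in mad550 over 13.44 to 13.56 in mad561. The other 4 small subunit genes lay below the limit. Rps6, the substrate of the S6 kinases, had values of 9.61, 9.94 and 10.22, and Rps25 of 8.51, 8.87 and 9.33. Rps6 was nevertheless in the top quartile of the array in all 17 tumors, and Rps25 in 7. Rps27, a zinc finger protein, had 6.15, 6.33 and 6.79, and Rps16, which contacts the tRNA that holds the growing chain, had 3.71, 4.02 and 4.13. The probe set of Rps16 was in the bottom quartile of the array in all 17 tumors, so its values carry little on differences between tumors.

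Other probe sets of a core gene often gave another level. The 3 core genes whose probe sets differed most in mean were Rpsa (4.75 and 14.96), Rps18 (6 probe sets, 4.83 to 14.63) and Rps3 (3 probe sets, 5.87 to 14.60). Agreement over the tumors was also uneven. The 3 probe sets of Rps29, whose means lay within 0.015 of each other, correlated at r = 0.73 and 0.79 with the one of highest mean over the 17 tumors, while for Rpl22 the values were r = 0.70 and 0.03. For 7 of the 9 core genes below the limit a single probe set was present. Of the 43 core genes, 17 were read from probe sets of the types that can match transcripts of more than 1 gene (_x_at and _s_at), and ribosomal protein genes have many processed pseudogenes, so the values of these genes are uncertain in that respect.

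**Figure D2:**
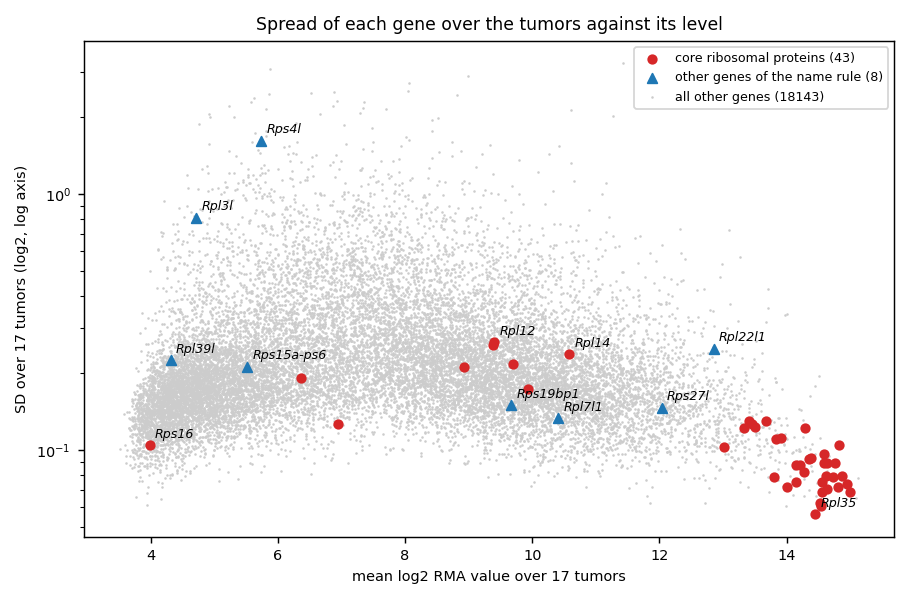
SD over the 17 tumors (vertical log axis, log2 units) against the mean log2 RMA value (horizontal axis) for 43 core genes, the 8 other genes of the name rule and all other genes (grey). The core genes with high signals lie at the lower right edge of all genes, with Rpl35 lowest (SD 0.056), whereas Rps4l (SD 1.61) and Rpl3l (SD 0.81) lie near the upper edge for their level.

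In their probe sets of highest mean, the core genes differed little between tumors. The SD over the 17 tumors had a median of 0.092 over the 43 core genes, against 0.193 over all genes. It was below 0.1 for 24 of the 43, against 2.6% of all genes. The SD of Rpl35 was 0.056, the smallest of all 18194 genes, and those of Rps20 (0.060), Rps14 (0.062), Rps29 (0.068) and Rps2 (0.069) ranked 3, 7, 17 and 19 from the lowest. A small spread was also common among other genes of high signal. Of the 279 genes with a mean of 13 or more, 33.7% had an SD below 0.1, and the 34 core genes among them, of which 24 were below 0.1, made up part of that share. The 245 genes outside the name rule at that level had a median SD of 0.118, against 0.087 in the 34 core genes. How far the upper end of the array's scale narrows the spread of such genes was not tested. Each SD is that of the probe set of highest mean, and other probe sets of a gene often spread more. For Rps28 (0.096) the other probe sets had SDs of 0.096 and 0.30, and for Rpl13a (0.079) 0.14 to 0.22. For Rpl35 they had 0.058 to 0.37, and for Rps29 0.067 and 0.083. The 5 core genes of largest SD were all below the limit of 12. They were Rpl12 (0.26), Rpl27a (0.26), Rpl14 (0.24), Rpl37 (0.22) and Rps25 (0.21), for which the SD was above the median of all genes.

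The small differences were shared between the core genes. The mean of Pearson's r over all pairs was 0.43 for the 43 core genes and 0.56 for the 34 above the limit (561 pairs over 17 tumors, of which 4 had r below 0), against 0.067 for pairs among all genes and 0.18 for pairs among the 245 other genes of high signal. The points share array, RNA and normalization, and values relative to the mean of those 245 genes on each array gave 0.35 for the 34. Without the _x_at and _s_at probe sets, which can match several transcripts, the mean r was 0.26 over 38 core genes. The mean of the large subunit genes (stalk included) and that of the small subunit genes above the limit correlated at r = 0.95. Against the mean of the other core genes, Rpl7 (0.85), Rps26 (0.83), Rpl10a (0.83), Rpl8 (0.83) and Rplp0 (0.82) had the highest r of the 43. The lowest were those of Rpl39 (-0.003), Rps16 (0.21), Rps25 (0.22), Rpl12 (0.26) and Rpl14 (0.37), again genes below the limit. Rpl37, also below it, had 0.70. Among the 34 genes above the limit, Rps4x, which is X-linked, and Rps3, which lies at the mRNA entry of the small subunit, had the lowest r with the other 33 (both 0.46), and Rpsa the highest (0.90).

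**Figure D3:**
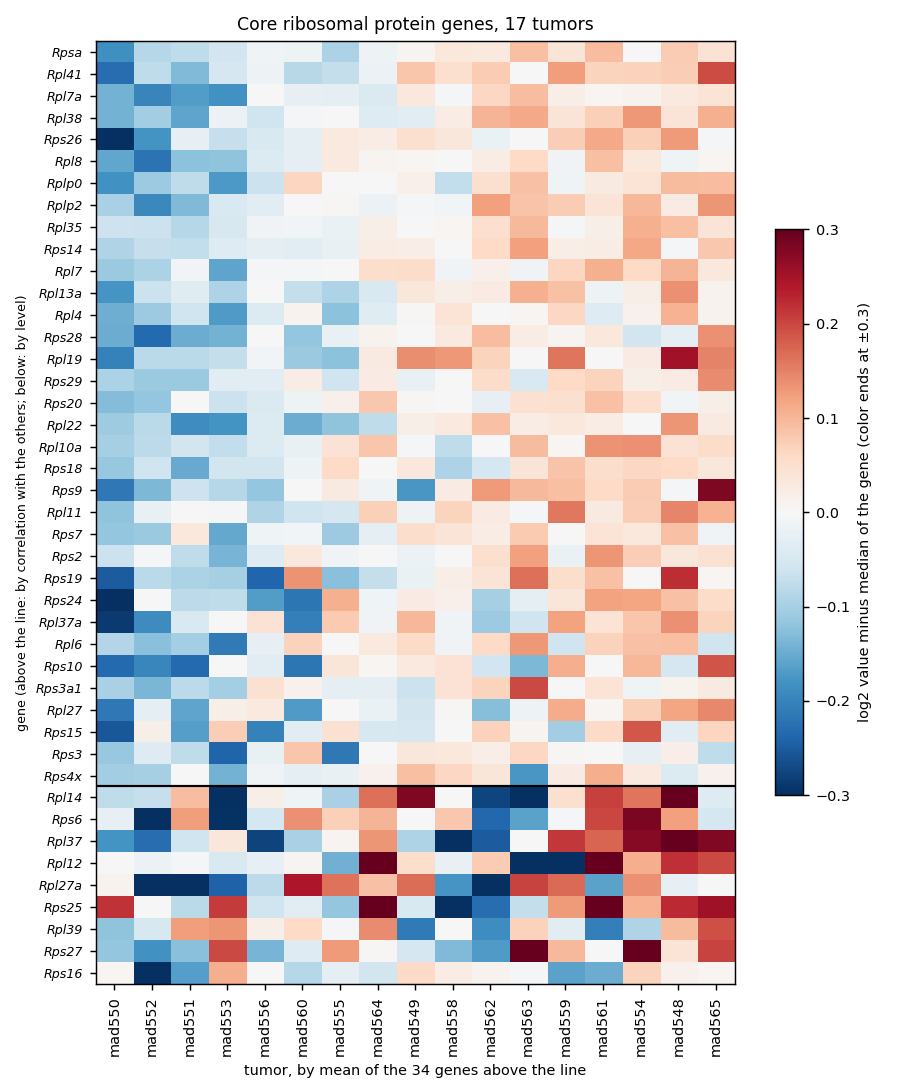
Log2 value minus the median of the gene (color, ending at 0.3 on either side) for the 43 core genes (vertical) in 17 tumors (horizontal, by the mean of the 34 genes above the line). All 34 genes above the line are below their median in mad550. The 9 genes below the line follow that order unevenly, with r against the mean of the other core genes from -0.003 (Rpl39) to 0.70 (Rpl37).

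The tumor with the lowest ribosomal protein signal was mad550. The mean of the 34 core genes above the limit was 14.13 in mad550, 14.30 at the median and 14.35 at highest in mad565 and mad548, with an SD of 0.068 over the 17 tumors. All 34 genes were below their own median in mad550, from 0.06 below for Rpl35 to 0.37 below for Rps24, and 16 of the 34 had their lowest value there. In mad552, mad551 and mad553 the mean was 14.19, 14.20 and 14.20, with 32, 30 and 30 of the 34 genes below their median. At the other end, mad548, mad561 and mad565 held the highest value of 9, 7 and 7 of the 34. In log2 units the median difference of the 34 genes in mad550 was -0.14, or 0.906 times the level at the median. Of the 4 tumors with the lowest mean, mad550 and mad553 were among the 3 with high skeletal muscle markers, while mad551 (6.32) and mad552 (5.85) were not, and the third tumor with muscle markers, mad549, lay at the median of the core mean (14.30). Without those 3 tumors the mean r between pairs of the 34 genes was 0.46, and without mad550 alone it was 0.48. Genes of high signal outside the rule were also low in mad553 (0.13 below their median) but only 0.05 below in mad550. The part of muscle RNA in these values was not tested.

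**Figure D4:**
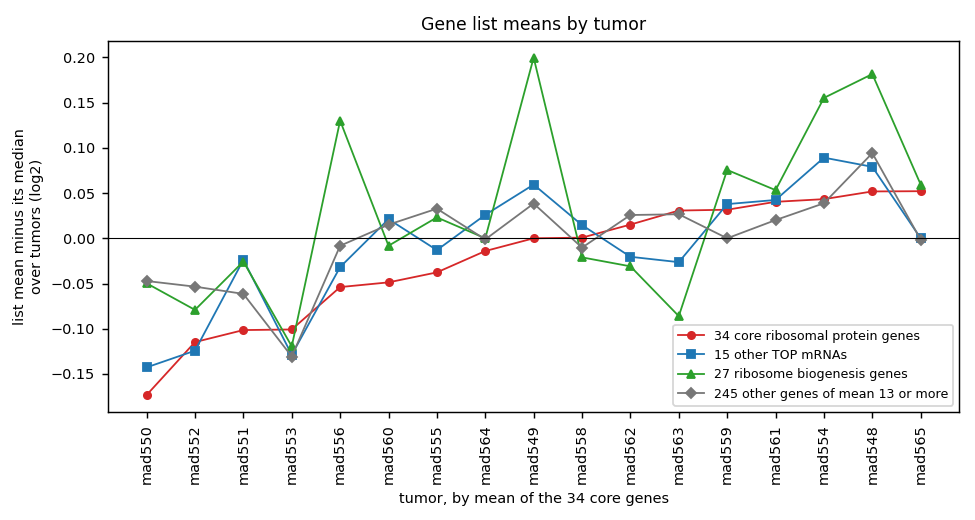
Mean log2 value of 4 gene lists minus the median of that mean over tumors (vertical axis) in each of 17 tumors (horizontal axis, by the mean of the 34 core genes). The core genes and the other TOP mRNAs are both lowest in mad550 and low in mad552 and mad553, whereas the ribosome biogenesis list is highest in mad549 and its lowest value is in mad553.

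Other genes of the translation machinery were described beside the core genes. The 15 measured genes of a list of other TOP mRNAs, such as those of elongation factors and Fau, had a mean of 13.25 in mad550, the lowest, 13.39 at the median and 13.48 in mad554, the highest. Its mean correlated with that of the 34 core genes at r = 0.83 over the 17 tumors, beside 0.73 for the mean of the 245 genes of high signal outside the rule. Among single genes of that list, Tpt1 (r = 0.76 with the mean of the 34 core genes), Fau (0.73), Eif3f (0.72) and Eef1a1 (0.70) had the highest r. These genes are themselves among the 245. Btf3 (0.02) and Nap1l1 (0.09) were among the lowest. Fau, a ribosomal protein made as a fusion with a ubiquitin-like protein and so outside the name rule, ranged from 12.84 over 13.12 to 13.27. The 27 measured ribosome biogenesis genes, which encode nucleolar factors that process ribosomal RNA and assemble the subunits, ranged from 11.15 in mad553 over 11.27 to 11.47 in mad549. Their mean correlated with that of the 34 core genes at r = 0.54, as against 0.73 for the 245 genes of high signal outside the rule.

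Whether core genes moved with a property of the tumors was asked with 5 separate limma fits over all genes, each with 1 value per tumor as a slope. The properties were the mean of the ribosome biogenesis genes, of cell division genes, of p53 target genes and of macrophage markers, and the difference between the 3′ and 5′ control probe sets of Gapdh and Actb, a measure of RNA quality. No core gene passed an adjusted p of 0.05 in any of the 5 fits (limma with Benjamini-Hochberg adjustment). Over all genes the shares called were 0% for ribosome biogenesis, 0.638% for cell division, 0.176% for p53 targets, 5.3% for macrophage markers and 0% for the control difference. At an unadjusted p below 0.05, 6 of 43 core genes had a slope on ribosome biogenesis (11.8% of all genes), 2 on cell division (11.7% of all genes) and 1 on p53 targets (13.2% of all genes). With macrophage markers there were 0 of 43 (15% of all genes) and with the control difference 1 (6.82% of all genes). At the values as deposited, these shares of core genes were near or below those of all genes, but they depended on the scaling and on single tumors. With array medians subtracted, 16 of 43 core genes had an unadjusted p below 0.05 on cell division (17.5% of all genes) and 9 on ribosome biogenesis (14.3%). On ribosome biogenesis there were 14 without mad563 (16.4% of all genes) and 10 with the mean of all probe sets (13.4%). How far subtracting the same median from all genes of an array itself changes the slopes was not tested.

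The slope on ribosome biogenesis was positive for 42 of 43 core genes, and for most genes of the array. Its median was 0.037 log2 units per SD of the list mean for the core genes, against 0.030 for all genes, of which 70.1% had a positive slope. With array medians subtracted the medians were 0.050 for the core genes and 0.017 for all genes, of which 60.4% had a positive slope. Rpl14 had the smallest p of the core genes, with a slope of 0.18 (SE 0.040, limma adjusted p = 0.157). It was high in mad548 (10.91) and mad549 (10.87) and low in mad553 (9.98) and mad563 (10.20), and the biogenesis list was high in the first pair and low in the second. On cell division the median slope of the core genes was 0.021, with 34 of 43 positive, against 0.005 and 53.4% over all genes. Without the 3 tumors with muscle markers that median was -0.0019, with 21 of 43 positive, against -0.019 and 38.5% over all genes. With array medians subtracted it was 0.053, with 39 of 43 positive, against 0.022 and 63.8% over all genes, and the lowest limma adjusted p of a core gene was 0.0713. On macrophage markers the median had no stable sign. It was -0.001, with 19 of 43 positive, against -0.006 and 46.0% over all genes. Without mad550 it was 0.011 with 35 of 43 positive, against -0.0015 and 49.0% over all genes. Without the 3 tumors with muscle markers it was 0.016 with 35 positive, against 0.0029 and 51.9%. When array medians were subtracted it was -0.012 with 11 positive, against -0.021 and 35.7% over all genes. Of the 7 other measured protein-coding genes and pseudogenes with ribosomal protein names, and Rps19bp1, none passed the threshold in any fit either.

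The paralogs were not alike in their spread over the tumors. The SD was 1.61 for Rps4l and 0.81 for Rpl3l. It was 0.25 for Rpl22l1, 0.22 for Rpl39l, 0.15 for Rps27l and 0.13 for Rpl7l1, within the range of the core genes (0.056 to 0.26). Rpl22l1 is the paralog of Rpl22, an RNA-binding protein of the large subunit, and is known in mice to rise when Rpl22 is lost. It had a lowest value of 12.22 in mad555, a median of 12.91 and a highest value of 13.15 in mad554 (SD 0.25, in the top quartile of the array in all 17 tumors). After mad555, the lowest values were those of mad553 (12.42) and mad562 (12.59). Rpl22 itself had a lowest value of 14.23 in mad551 and a highest of 14.55 in mad548. The r between Rpl22l1 and Rpl22 was 0.31 (rho = 0.21, two-sided permutation p = 0.230 and 0.416, adjusted p = 0.414 and 0.554 over 4 pairs), and 0.25 when the 2 tumors with the most extreme Rpl22 values were left out. It was 0.16 without mad553, the lowest value when single tumors were left out, and 0.51 with the mean of all probe sets.

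Rps27l, the paralog of Rps27 that p53 is known to induce, had a lowest value of 11.74 in mad553, a median of 12.03 and a highest value of 12.38 in mad548. Its 3 probe sets followed each other closely, with r of 0.91 and 0.93 with the one of highest mean. Its r with the mean of 18 measured p53 targets was 0.42 (rho = 0.30, permutation p = 0.0943 and 0.243, adjusted p = 0.377 and 0.554), and 0.17 without mad558 and mad562. These 2 tumors had the lowest and the highest mean of the targets. Leaving both out narrows the range of the list, so the lower r does not show that the relation rested on them. Without mad558 alone r was 0.36, and without mad562 alone it was 0.26. The r of Rps27l with Rps27 was -0.26 (rho = -0.24, permutation p = 0.310 and 0.362, adjusted p = 0.414 and 0.554), and -0.14 when the 2 tumors with the most extreme Rps27 values were left out. Rpl39l, a paralog of Rpl39 known from testis, was in the bottom quartile of the array in all 17 tumors (3.91 to 4.85, median 4.33), and its r with Rpl39 was -0.045 (rho = -0.080, permutation p = 0.865 and 0.760, adjusted p = 0.865 and 0.760), and 0.029 without 2 tumors. Rps27 and Rpl39 were each read from a single probe set of low signal (6.15 to 6.79 and 6.73 to 7.14), which limits what their pairs can show. None of the 4 pairs passed the threshold with this number of tumors.

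**Figure D5:**
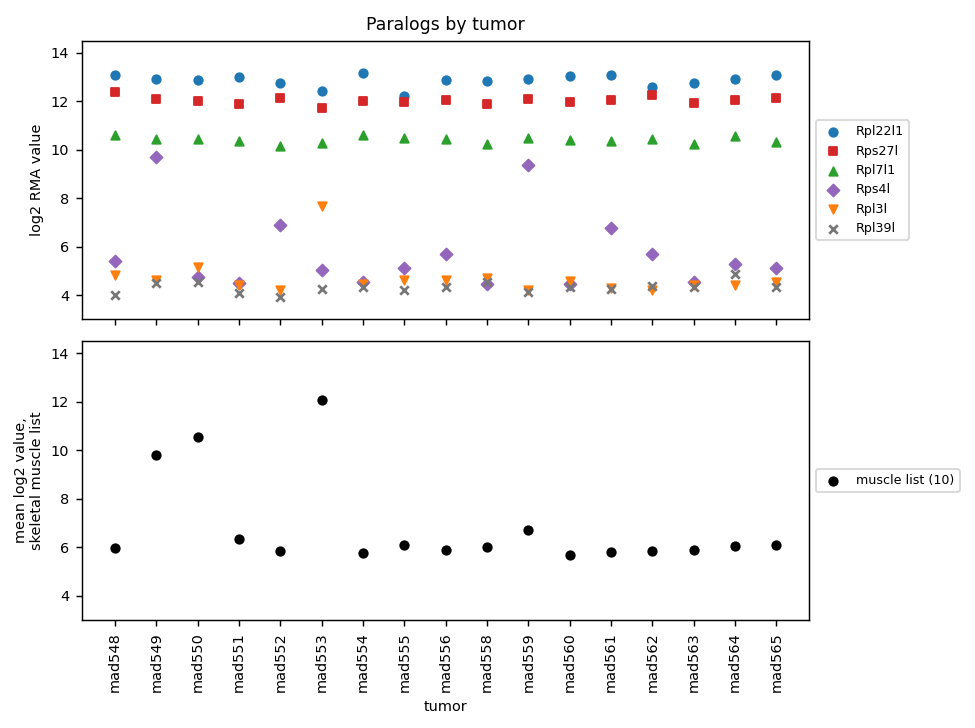
Log2 RMA value of 6 paralogs (upper panel) and mean log2 value of 10 skeletal muscle genes (lower panel) in each of 17 tumors (horizontal axis). Rps4l, counted among the 6, is annotated as a transcribed pseudogene. Rps4l is high in mad549 and mad559 and intermediate in mad552 and mad561, and Rpl3l is high in mad553, the tumor with the highest muscle list.

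Rps4l differed most between tumors. It is a copy of the small subunit gene Rps4x on chromosome 6, annotated in RefSeq as a transcribed pseudogene. Its value was 9.72 in mad549 and 9.39 in mad559, 6.88 in mad552 and 6.79 in mad561, and 4.45 to 5.72 in the other 13 tumors. The tumors thus lay at 3 separate levels, with 2 of 17 in the top quartile of the array and 6 in the bottom quartile. The SD of 1.61 ranked 39 from the highest of 18194 genes. Rps4x did not show this pattern, since its SD was 0.078 with values of 14.57 to 14.86. Nor did the genes around Rps4l, since the 14 measured genes within 1 Mb of it had SDs of at most 0.39. Of the 4 tumors with higher values, mad549 had skeletal muscle markers and mad559, mad552 and mad561 did not (6.71, 5.85 and 5.81 for the list). A single probe set measures Rps4l, so that the pattern has no check within these arrays.

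Rpl3l, the paralog of Rpl3 that replaces it in striated muscle, was high in a single tumor. Its value was 7.70 in mad553 and 5.15 in mad550, against 4.22 to 4.81 in the other 15, of which mad549 had 4.64. In 15 of the 17 tumors it was in the bottom quartile of the array. The tumor with the highest value was also the one in which the muscle list was highest (12.07), and mad550, with the next highest Rpl3l, came next in the list (10.57), whereas mad549 (9.79) did not stand apart in Rpl3l. The SD of Rpl3l (0.81, rank 350) rested on mad553.

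The remaining genes of the rule were Rpl7l1, Rps19bp1 and Rps15a-ps6. Rpl7l1, a nucleolar paralog of Rpl7, had values of 10.14 in mad552 to 10.62 in mad554 with a median of 10.44. Its 2 other probe sets had r of 0.31 and -0.04 with it over the tumors. Rps19bp1 had values of 9.36 in mad563 to 9.93 in mad552 with a median of 9.68, and its r with the mean of the core genes was 0.09. The pseudogene Rps15a-ps6 was lowest in mad561 (5.25) and highest in mad556, with a median of 5.46, an SD of 0.21 and an r of -0.007.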

How the data were processed

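RNA of 17 tumors was hybridized to whole-genome Affymetrix mouse arrays, 1 per tumor, after two-cycle labeling. The authors deposited log2 values per probe set, made per the labels with RMA and Partek 6.4, whereas their methods text names MAS5. RMA quantile-normalizes arrays, which reduces shifts common to all genes, but differences between whole arrays remained. Array medians were 6.28 to 6.51, and the mean of all genes was 7.57 (mad551) to 7.74 (mad554). The number of arrays limits the precision. Of 45101 probe sets, 34958 had 1 symbol in the platform annotation, 932 several and 9147 none, and 64 were controls. Each gene took its single-symbol probe set of highest mean. SDs and correlations are over tumors. Slopes were fitted with limma 3.58.1 (R 4.3.3), leaving the genes of the list out of its own fit, after a test on simulated data, and p-values were Benjamini-Hochberg adjusted over all genes of a fit. Pairs were tested with 100000 two-sided permutations and adjusted over 4 pairs. The pair Rpl36al with Rpl36a and protein sequences were not analysed here. P-values measure the spread between these tumors. Start windows are from RefSeq. Other steps ran in Python 3.11.15 with pandas 2.3.3, NumPy 2.4.6 and SciPy 1.17.1, and figures were drawn with Matplotlib 3.10.9.

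The genes and lists were chosen with earlier results of these data known. Named were all genes of the rule outside the core, the stalk genes, Rpl5, Rpl11 and Rps27a, the 5 core genes of largest and smallest SD and of highest and lowest r with the others, the 3 of lowest mean, the 3 with the widest span of probe sets, those called in a fit, and Fau, while the remaining genes of the rule are not reported here. Other genes were named after their values had been seen. Alternatives covered the choice of probe sets, array medians, a quality term, a filter on dim genes and the tumors.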

Additional observations from a re-analysis of the deposited data

How the results depend on the processing

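No core gene passed the threshold in any of the 5 fits under any alternative, including leaving out each tumor in turn, and the lowest adjusted p over all of them was 0.0587 (ribosome biogenesis, array medians subtracted). The number of core genes with an unadjusted p below 0.05 did move, most of all on cell division with array medians subtracted (16, against 2 as reported) and on ribosome biogenesis without mad563 (14, against 6). The SD of the mean of the 43 core genes was 0.069, and 0.047 to 0.080 over the alternatives. The mean r between pairs of the 43, 0.43 as reported, was 0.26 without _x_at and _s_at probe sets (38 genes) and 0.26 relative to the high-signal genes outside the rule. That second alternative and the limit to 34 genes were chosen after seeing the data. Leaving out each tumor gave 0.38 to 0.46. The r of Rpl39l with Rpl39 turned positive when array medians were subtracted (0.19) and without mad549, mad550 and mad553 (0.17), and ran from -0.31 to 0.06 when each tumor was left out. The causes were not tested. The other 3 pairs kept their sign and did not pass the threshold under any alternative. Their r ran from 0.16 to 0.51 (Rpl22l1 with Rpl22), from 0.26 to 0.50 (Rps27l with the p53 targets) and from -0.37 to -0.17 (Rps27l with Rps27). No paired analysis was possible because the series holds a single group of tumors. Values at the ends of the array's scale limit what can be seen of Rps16, Rpl39l and the core genes of highest signal.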
